A study of Mus musculus with 6 samples.

Results

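The genes described here code for proteoglycan core proteins and hyaluronan synthases, and were taken by symbol from a list of 10. They are the matrix proteoglycans *Vcan*, *Bgn* and *Dcn*, the syndecans *Sdc1*, *Sdc2*, *Sdc3* and *Sdc4*, the glypican *Gpc1*, and the hyaluronan synthases *Has2* and *Has3*. All 10 were found among the 17428 genes of the deposited table, and all 10 were among the 13893 genes tested. RNA came from 3 stages of EpH4 (labelled EpH-4), an immortalized mouse mammary epithelial cell line, with 2 biological replicates per stage and 6 libraries in all. E cells were not exposed to TGFβ1. M cells had received TGFβ1 for 7 days. RE (reverted epithelial) cells had received TGFβ1 for 7 days and were then kept in normal medium, which held serum and insulin like that of the other stages, for 4 more days. No transgene or deletion is named for any stage, and all values come from a single cell line in culture. The concentration of TGFβ1 is not given in the sources used here.

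Proteoglycans are proteins that carry long sulfated sugar chains (glycosaminoglycans). Versican, biglycan and decorin are secreted into the matrix and carry chondroitin or dermatan sulfate, whereas syndecans span the membrane and glypicans are held on it by a lipid anchor, and these carry mainly heparan sulfate, which binds growth factors and matrix proteins. Hyaluronan is a glycosaminoglycan without a core protein and is spun out directly by synthases in the plasma membrane. In mammary epithelium, syndecan-1 is a well-known surface proteoglycan, and hyaluronan and versican are known as components of a loose, provisional matrix. TGFβ1 is itself bound by decorin and biglycan.

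The values are coverage, the sum of sequenced bases over a gene, and the libraries held 35782513 to 47928557 reads' worth of 50 bases. Levels are given as the TMM-normalized share of a library's bases that fell on a gene, in ppm, and changes as log2 fold changes on the log2(ppm + 0.1) scale, on which changes of weakly covered genes come out too small. A gene was called where limma gave a change of more than 2-fold, up or down, with an adjusted p under 0.01. At or under 3 reads' worth (0.0632 to 0.0787 ppm, depending on the library), a gene was treated as at the floor, which covers counting error only. The E libraries were the least alike, the log2 ratio of the replicates having an SD over all genes of 0.558, compared to 0.318 for M and 0.309 for RE. Of 8 epithelial markers, *Krt19* was at 0.0421 to 0.161 ppm in all libraries, close to the floor. *Epcam*, *Cdh1*, *Krt8* and *Krt18* were at or above 121 ppm in each library. The directions were mixed. In E, M and RE, *Ocln* had means of 41.36, 6.341 and 23.99 ppm, *Cldn3* of 127.8, 49.8 and 61.79, and *Cldn4* of 195.7, 92.51 and 79.63. *Krt8* was highest in M (202.5, 318.8 and 126.8 ppm). *Krt18* had the highest mean of the 8 in each stage (747.6, 569.6 and 289.9 ppm) and so weighed most in their sum. The summed level of the 8 was 1740 to 2120 ppm in E, 1420 to 1460 in M and 957 to 1010 in RE. The summed level of the 6 fibroblast markers present moved the other way, from 135 to 166 ppm in E to 995 to 1130 in M and 1060 to 1240 in RE, most of it *Pdgfrb* and *Col1a1*, while *Thy1* and *Dpt* were at the floor in every library. The leukocyte markers *Ptprc* and *Cd3e* and the adipocyte markers *Adipoq*, *Plin1* and *Cidec* were at the floor in every library too. The other markers of those lists were not all at the floor. The leukocyte marker *Cd68* was at 5.14 to 9.25 ppm over the libraries. The adipocyte marker *Fabp4* was at 8.98 and 3.13 ppm in E, 0.0558 and 0.0244 in M and 2.20 and 1.87 in RE. Of the 4 endothelial markers, which summed to 0.373 to 0.559 ppm in E, 2.70 to 2.75 in M and 0.491 to 0.494 in RE, *Kdr* was at the floor throughout and *Cdh5* was at 0 in both E libraries and at 2.32 and 2.09 ppm in M. The 5 myoepithelial markers, led by *Krt14*, summed to 309 to 374 ppm in E, 784 to 899 in M and 497 to 498 in RE. These markers did not move together. *Krt14* and *Acta2* had their highest means in M (712 and 79.2 ppm). *Trp63* had means of 70.7, 49.8 and 165 ppm in E, M and RE. Those of *Myh11* were 0.590, 0.421 and 0.278 ppm, and those of *Krt5* 0.143, 0.107 and 0.470.

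The first question was which of the 10 genes differed between E and M cells, that is, after exposure to TGFβ1. *Has2*, *Sdc3*, *Vcan*, *Gpc1* and *Sdc1* rose and *Dcn* fell, so 6 of 10 were called, against 16.8% of all genes tested (8.41% higher and 8.35% lower). From M to RE cells, that is, after TGFβ1 had been withdrawn, *Dcn*, *Bgn* and *Sdc4* rose and *Has2* and *Gpc1* fell, so 5 of 10 were called, against 12.7% of all genes (7.92% higher and 4.79% lower). Comparing RE with E cells, which asks how far the cells had returned to their starting state, *Sdc3*, *Vcan*, *Dcn*, *Bgn*, *Has2* and *Sdc2* were higher, 0 were lower, and 6 of 10 were called, against 9.08% of all genes (5.92% higher and 3.16% lower). In the order E vs. M, M vs. RE, E vs. RE, the median log2 fold change of the 10 genes was 0.99, 0.19 and 1.45, where the medians over all genes tested were −0.003, −0.02 and −0.002. In each comparison, the libraries of the groups did not overlap for 9 of the 10 genes, the exception being *Has3*. Such separation was common, at 71.1%, 78.6% and 67% of all genes tested in the same order. Of the 10 genes, 9 reached the 500 bases asked for by the filter in every library, and *Dcn* passed through its E and RE libraries alone. The E vs. RE calls depended on having both RE libraries. Without either, 0 of the 10 genes were called, and only 8 (without replicate 1) and 49 (without replicate 2) of all genes tested were. In these bulk libraries, fewer cells that express a gene and less RNA per cell cannot be told apart.

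**Figure D1:**
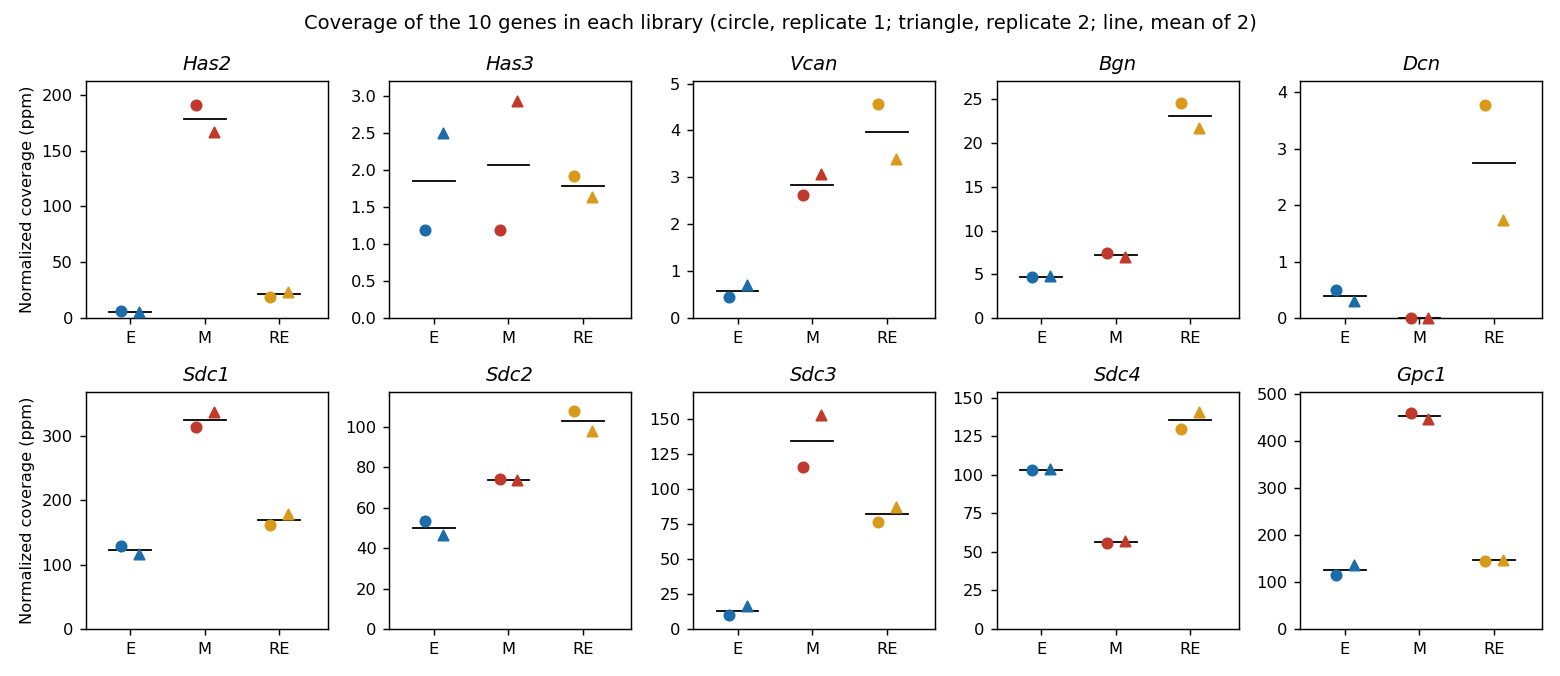
Normalized coverage in ppm (vertical axes, linear and starting at 0, scaled per gene) of each gene in the E, M and RE cells. Circles are replicate 1, triangles replicate 2 and lines the mean of the 2 libraries. *Has2*, *Gpc1* and *Sdc1* peak in the M cells, *Sdc4* and *Dcn* are lowest there, *Vcan*, *Bgn* and *Sdc2* are highest in the RE cells, and the replicates of *Has3* are as far apart as its groups.

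**Figure D2:**
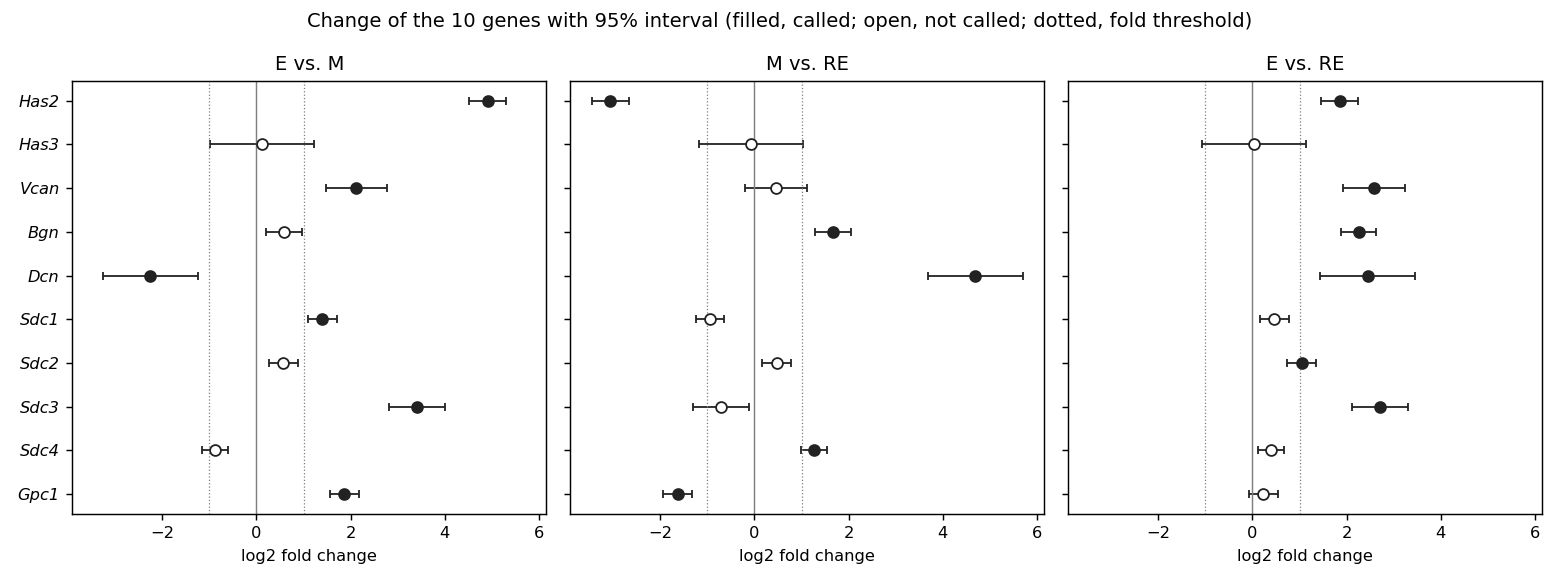
Log2 fold change (horizontal axis) of each gene in E vs. M, M vs. RE and E vs. RE with its 95% confidence interval from limma. Filled points were called and open points were not, and the dotted lines mark the fold threshold. The largest change in E vs. M is that of *Has2* (4.91), and all 6 called points in E vs. RE lie to the right of 0.

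*Has2*, which codes for the synthase that makes long hyaluronan chains and is the main one in many mesenchymal cells, had the largest rise of the 10 genes under TGFβ1. Its level was 6.25 and 5.45 ppm in the E libraries, 191 and 166 ppm in the M libraries and 19.1 and 23.8 ppm in the RE libraries. Both M libraries were far above all others, and both RE libraries stood clear of E. The M mean was 30.5 times the E mean, or 4.91 on the log2 scale (SE 0.17, limma adjusted p = 1.36e-05). After withdrawal *Has2* fell by 3.06 on the log2 scale (SE 0.17, limma adjusted p = 3.39e-05), yet it was still 3.67 times higher in RE than in E cells (log2 fold change 1.85, SE 0.17, limma adjusted p = 0.000707). The last call was lost without either RE library (limma adjusted p = 0.0159 and 0.0142), with little change in size (2.01 and 1.70). *Has2os*, a known transcript antisense to *Has2*, is not a row of the table. Whether the authors' counting used strand is not given in the sources used here, so bases from both strands cannot be told apart.

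*Has3*, whose product makes shorter hyaluronan chains, was low in all stages and was not called in any comparison. It was at 1.197 and 2.50 ppm in E, 1.199 and 2.94 ppm in M and 1.92 and 1.65 ppm in RE, so the replicates of E and of M differed by 2.09 and 2.45 times. The 95% intervals of its log2 fold change were −0.99 to 1.22 (E vs. M), −1.18 to 1.02 (M vs. RE) and −1.07 to 1.14 (E vs. RE), which leaves room for changes of about the fold threshold either way. *Has1*, the remaining synthase, was likewise unequal between replicates, at 0.760 and 3.42 ppm in E. Per kb of transcript, *Has2* made up 72.3% and 38.5% of the summed level of the 3 synthases in the E libraries, 98.2% and 95.4% in the M libraries and 83.3% and 82.6% in the RE libraries. The sum itself was 2.69 ± 0.921 ppm per kb (SD, n = 2) in E, 43.5 ± 3.36 in M and 6.11 ± 0.975 in RE. The synthase transcripts of M and RE cells were thus mostly *Has2*, whereas the mix in E cells was not the same in its 2 libraries.

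*Vcan* codes for versican, a large proteoglycan that binds hyaluronan. It was at 0.463 and 0.708 ppm in E, only 20 and 27 reads' worth, at 2.63 and 3.07 ppm in M and at 4.56 and 3.39 ppm in RE. All M and RE libraries lay above both E libraries, and the RE libraries above the M libraries. It rose in E vs. M (log2 fold change 2.12, SE 0.28, limma adjusted p = 0.00116) and was 6.79 times higher in RE than in E (2.58, SE 0.28, limma adjusted p = 0.00128). Between M and RE it was not called (0.46, 95% interval −0.20 to 1.11, limma adjusted p = 0.256). The call in E vs. M was lost without M replicate 1 or 2 (limma adjusted p = 0.0142 and 0.0191), and that in E vs. RE without RE replicate 1 or 2 (0.0277 and 0.0152).

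*Bgn* (biglycan) and *Dcn* (decorin) are related small leucine-rich proteoglycans that bind collagen and TGFβ. Under TGFβ1 *Dcn* fell and *Bgn* was not called, and both were higher in RE cells. *Bgn* was at 4.67 and 4.85 ppm in E, 7.41 and 6.97 ppm in M and 24.5 and 21.7 ppm in RE. Both M libraries were above both E libraries, but the difference was not called (log2 fold change 0.59, 95% interval 0.21 to 0.96, limma adjusted p = 0.0236). *Bgn* rose after TGFβ1 was withdrawn, to 3.21 times its M level (1.67, SE 0.16, limma adjusted p = 0.000339) and 4.86 times its E level (2.25, limma adjusted p = 0.000417). Without RE replicate 1 neither call held (limma adjusted p = 0.0106 for M vs. RE, 0.0159 for E vs. RE), nor did that in E vs. RE without RE replicate 2 (0.0111).

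*Dcn* was at 0.496 and 0.304 ppm in E, or 21.4 and 11.6 reads' worth, at 0 and 0.00684 ppm in M, and at 3.77 and 1.74 ppm in RE. The M libraries held 0 and 14 bases, which is under the floor, so the folds against them are lower bounds set at the floor of 3 reads' worth per library. The bounds take the means of the E and of the RE libraries, so the lower library of each alone would give a smaller one. On that basis *Dcn* was on average at least 5.46-fold higher in E than in M cells and at least 37.6-fold higher in RE than in M cells. It was called in both comparisons (limma adjusted p = 0.00571 and 0.000274), although the fitted size depends on the pseudocount and the E vs. M call was lost with a pseudocount of 1 (limma adjusted p = 0.158), with array weights (0.024), in a fit of these groups alone (0.0113) and without either M library (0.0433 and 0.0382). The RE mean was 6.89 times the E mean (log2 fold change 2.44, SE 0.43, limma adjusted p = 0.00666), with RE libraries that differed by more than 2-fold. That call was lost on leaving out any M or RE library (adjusted p from 0.0211 to 0.0745 by limma), with no filter (0.0102), with a pseudocount of 0.025 (0.0114), in a fit of E and RE alone (0.0198) and with array weights (0.0231). *Vcan*, *Bgn* and *Dcn* are also products of fibroblasts, whose summed marker level was higher in M and RE than in E, as given above, with *Thy1* and *Dpt* at the floor throughout. A link between these markers and the levels of *Vcan*, *Bgn* and *Dcn* was not tested.

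The 4 syndecans, which act as co-receptors for growth factors and integrins, were all well above the floor. *Sdc1* was at 129 and 117 ppm in E, 313 and 337 ppm in M and 161 and 179 ppm in RE. It rose 2.64-fold in E vs. M (log2 fold change 1.40, SE 0.13, limma adjusted p = 0.000243). It then came down towards E by 1.91-fold, which is just under the fold threshold and so was not called at an adjusted p of 0.00178 by limma (log2 fold change −0.94, 95% interval −1.24 to −0.63). In E vs. RE it was not called (0.46, 95% interval 0.16 to 0.77, limma adjusted p = 0.0336), with both RE libraries above both E libraries.

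*Sdc4*, a syndecan found at focal adhesions, was lower in both M libraries than in any other. The E libraries were at 103.1 and 103.5 ppm, the M libraries at 55.9 and 57.0 ppm and the RE libraries at 129.8 and 141 ppm. The lower level in M (1.83-fold, log2 fold change −0.87, 95% interval −1.15 to −0.59) had an adjusted p of 0.00134 by limma but did not reach the fold threshold. It was called with library totals as the only scaling (−1.17), under which the median over all genes was −0.29. From M to RE *Sdc4* rose 2.40-fold (1.26, SE 0.12, limma adjusted p = 0.000303), a call that narrowly failed without M replicate 1 (limma adjusted p = 0.0102). Against E it was not called (0.39, 95% interval 0.11 to 0.67, limma adjusted p = 0.0441).

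*Sdc3*, best known from the nervous system and muscle, had the second-largest rise of the 10 genes in E vs. M. It was at 9.66 and 16.1 ppm in E, 115.5 and 153 ppm in M and 76.5 and 87.3 ppm in RE. The RE libraries lay between the other groups. Its M mean was 10.4 times the E mean (log2 fold change 3.40, SE 0.25, limma adjusted p = 9.8e-05), and its RE mean was 6.36 times the E mean (2.70, SE 0.25, limma adjusted p = 0.000809). The difference between M and RE was not called (−0.70, 95% interval −1.29 to −0.11, limma adjusted p = 0.0732). The E libraries differed 1.66-fold, and the E vs. M change was between 3.04 and 3.77 when 1 library at a time was left out. The E vs. RE call was lost without RE replicate 1 or 2 (limma adjusted p = 0.0187 and 0.0152).

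*Sdc2*, the syndecan typical of mesenchymal cells, was called in E vs. RE alone. It was at 53.3 and 46.4 ppm in E, 74.1 and 73.6 ppm in M and 107.8 and 97.8 ppm in RE, so that the groups were ordered without overlap. Neither step was called (log2 fold change 0.57 from E to M with a limma adjusted p = 0.0122, and 0.47 from M to RE with 0.0309), but the difference between the ends was (1.04, SE 0.13, limma adjusted p = 0.00206). At 2.06-fold, that call is close to the threshold, and it was lost with library totals (0.96), in a fit of the E and RE libraries alone (limma adjusted p = 0.0136), without E replicate 2 (0.94), and without any M or RE library (adjusted p from 0.0137 to 0.0448 by limma).

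Compared per kb of their longest coding transcript, the summed level of the 4 syndecans was 97.7 ± 3.10 ppm per kb (SD, n = 2) in E, 174 ± 10.7 in M and 154.5 ± 6.70 in RE. Its make-up differed between the stages as well. *Sdc4* made up 42.0% and 44.1% of the sum in the E libraries, 13.7% and 12.8% in M and 35.3% and 36.0% in RE. *Sdc1* went from 41.0% and 38.8% to 59.7% and 58.8% and then to 34% and 35.5%. The ratio of *Sdc1* to *Sdc4* was 0.976 and 0.88 in the E libraries, 4.36 and 4.59 in the M libraries, and 0.965 and 0.986 in the RE libraries. *Sdc3* was 1.94% and 3.38% of the sum in E and kept a larger part in RE (10.3% and 11%) after 14.0% and 16.9% in M. *Sdc2* made up 15.1% and 13.8% of the sum in E, 12.6% and 11.5% in M and 20.4% and 17.4% in RE. The *Sdc1* to *Sdc4* ratio of the RE cells was thus close to that of the E cells. In the larger sum of the RE cells, *Sdc2* and *Sdc3* had larger shares than in E. The levels of all 4 syndecans were higher, with RE means of 53.8, 29.2, 16.5 and 55.1 ppm per kb for *Sdc1* to *Sdc4*, against 39.0, 14.1, 2.59 and 42.0 in E. With 2 libraries against 2, an exact permutation test can give no two-sided p below 0.333, so these shares are described without a test.

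**Figure D3:**
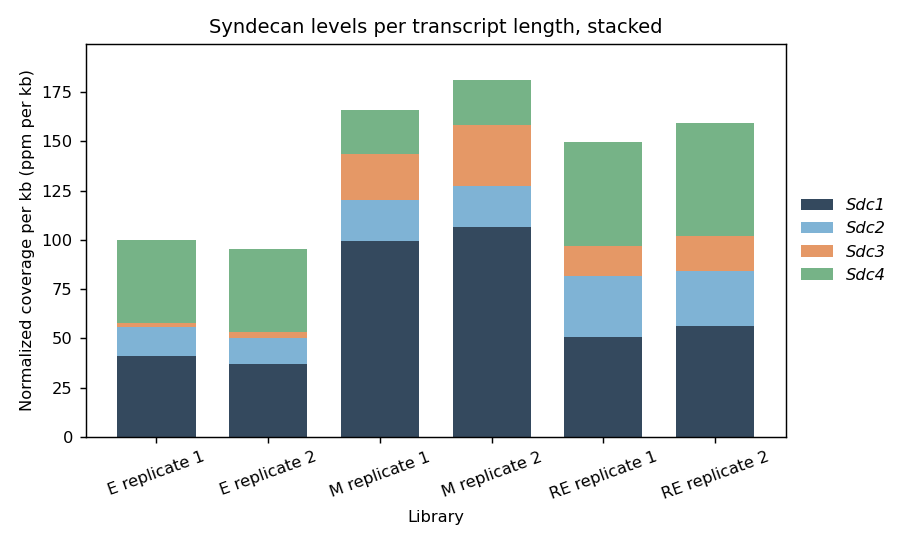
Level per kb of transcript (vertical axis, ppm per kb) of the 4 syndecans in each of the 6 libraries (horizontal axis), stacked. The *Sdc4* segment is smallest and the *Sdc1* segment largest in the M libraries, and the *Sdc3* segment, thin in E (1.94 and 3.23 ppm per kb), is wider in M (23.2 and 30.7) and RE (15.4 and 17.6).

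The promoters of *Sdc1*, *Sdc3* and *Sdc4* are shown because the first pair rose under TGFβ1 while *Sdc4* was lower. Each is the 250 bases before the start site, 5′ to 3′ on the gene's strand, from RefSeq on GRCm38.p6, a newer build than the NCBI-m37 genome to which the reads were mapped. Capitals mark CAGGTG (an E-box of the kind bound by Snail and Zeb factors) and CAGACA (a Smad-binding element), searched on both strands with no overlap between them in these windows.
Sdc1 promoter (chr12:8771146-8771395, plus strand): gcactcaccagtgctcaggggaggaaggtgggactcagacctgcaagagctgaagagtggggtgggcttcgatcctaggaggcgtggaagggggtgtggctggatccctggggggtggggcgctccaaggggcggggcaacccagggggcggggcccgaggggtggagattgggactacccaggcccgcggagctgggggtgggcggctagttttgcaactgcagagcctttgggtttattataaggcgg
Sdc3 promoter (chr4:130792287-130792536, plus strand): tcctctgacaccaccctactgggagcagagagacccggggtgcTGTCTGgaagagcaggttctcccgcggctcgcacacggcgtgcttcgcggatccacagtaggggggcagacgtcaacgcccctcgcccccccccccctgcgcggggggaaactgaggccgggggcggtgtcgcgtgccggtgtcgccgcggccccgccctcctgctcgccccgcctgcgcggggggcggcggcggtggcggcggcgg
Sdc4 promoter (chr2:164443189-164443438, minus strand): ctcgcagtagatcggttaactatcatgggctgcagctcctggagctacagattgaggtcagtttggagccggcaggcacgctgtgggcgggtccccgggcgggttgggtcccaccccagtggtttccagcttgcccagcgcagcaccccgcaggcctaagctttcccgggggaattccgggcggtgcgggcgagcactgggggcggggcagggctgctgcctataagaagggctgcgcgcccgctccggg
The only match was CAGACA in *Sdc3*, on the opposite strand (printed as TGTCTG), starting 207 bases before the start site. Of the 32851 promoter windows of the same length in the table, 17.2% held CAGGTG and 17.1% held CAGACA. RefSeq promoters were matched for 5 of the 10 genes, and the windows of *Vcan* and *Bgn*, not printed, held 0 matches to either. *Dcn*, *Sdc2*, *Gpc1*, *Has2* and *Has3* were not matched. A match is given as a description of the letters only.

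*Gpc1* codes for glypican-1, which modulates FGF and other growth factor signals. It was at 115 and 136 ppm in E, 459.9 and 448 ppm in M and 146 and 147 ppm in RE. The M libraries stood far above the rest, and the RE libraries lay just above E. *Gpc1* rose 3.62-fold in E vs. M (log2 fold change 1.86, SE 0.13, limma adjusted p = 8.19e-05) and fell by 1.63 on the log2 scale in M vs. RE (SE 0.13, limma adjusted p = 0.000148). The difference of RE from E was 0.23 (95% interval −0.08 to 0.54, limma adjusted p = 0.219). The calls in E vs. M and M vs. RE held in all alternatives run, including without each library, as did those of *Has2* in the same comparisons. Among other glypicans, *Gpc4* had means of 83.0, 74.6 and 86.7 ppm in E, M and RE and was not called in any comparison, and *Gpc6* was higher in RE than in E cells (log2 fold change 1.08, limma adjusted p = 0.00885). The *Gpc6* call was close to both thresholds, with E libraries at 10.7 and 16.3 ppm and RE libraries at 28.3 and 27.9 ppm. *Gpc4* and *Gpc6* were singled out after their values were seen, *Gpc4* as a relative of *Gpc1*.

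In the order of levels per kb of transcript, *Sdc4* (42.0 ± 0.125 ppm per kb, SD, n = 2), *Sdc1* (39.0 ± 2.74) and *Gpc1* (30.03 ± 3.53) led in the E cells, followed by *Sdc2* at 14.1 ± 1.39. *Sdc3* (2.59 ± 0.913) and *Bgn* (1.97 ± 0.0527) overlapped, *Has2* was at 1.38 ± 0.134, and *Has3* (0.313 ± 0.156) and *Dcn* (0.227 ± 0.0772) overlapped above *Vcan* at 0.0471 ± 0.014. In the M cells, *Gpc1* (109 ± 1.95) and *Sdc1* (103 ± 5.21) were close together at the top, with libraries of 107 to 110.1 and 99.2 to 106.6. *Has2* rose from the seventh place to the third at 42.2 ± 4.13, above *Sdc3* (27.0 ± 5.27), *Sdc4* (23.0 ± 0.33) and *Sdc2* (20.9 ± 0.107), with *Bgn*, *Has3*, *Vcan* and *Dcn* last. In the RE cells the first 3 were again *Sdc4* (55.1 ± 3.21), *Sdc1* (53.8 ± 3.94) and *Gpc1* (35.1 ± 0.296), of which the libraries of *Sdc4* and *Sdc1* overlapped, with *Has2* back at seventh (5.07 ± 0.779). *Bgn* reached 9.55 ± 0.829 and *Dcn* 1.57 ± 0.817, while *Vcan* (0.320 ± 0.0667) and *Has3* (0.302 ± 0.0332) were last and overlapped.

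The other genes of the pathway were followed in 8 lists with 116 genes, of which 102 were in the table and 86 were tested. In E vs. M, 28 were higher and 8 lower, or 41.9% of those tested against the 16.8% of all genes. In M vs. RE, 8 were higher and 14 lower (25.6% against 12.7%), and for RE against E 19 were higher and 1, *Hyal2*, was lower (23.3% against 9.08%). The lists, like the 10 genes, were chosen with earlier results of these data known, so the shares called are descriptions only. With library totals in place of TMM the split was 21 higher and 10 lower in E vs. M, where that of the 10 genes went from 5 and 1 to 5 and 2. The median log2 fold change of the pathway genes was 0.57, −0.20 and 0.47 in the 3 comparisons. The E vs. RE count fell to 9 in a fit of these groups alone, to 10 without either M library and to 0 without either RE library. The E vs. M count was 17 and 18 without M replicate 1 and 2, and the M vs. RE count was 14, 13 and 14 without M replicate 2, RE replicate 1 and RE replicate 2.

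Among the other small leucine-rich proteoglycans, 8 of 12 were tested, and 2 were higher and 3 lower in E vs. M (median −0.31). That is 62.5% called, against 16.8% of all genes tested. *Ogn* (osteoglycin) had means of 39.8, 9.82 and 209 ppm in E, M and RE. It fell in E vs. M (log2 fold change −2.02, limma adjusted p = 0.000249), rose in M vs. RE (4.40, limma adjusted p = 1.63e-05) and was higher in RE than in E (2.39, limma adjusted p = 0.00049), the order also seen for *Dcn*. *Omd* (osteomodulin) fell in E vs. M (−2.14, limma adjusted p = 0.000615) and rose in M vs. RE (2.89, limma adjusted p = 0.000186). *Podnl1* (podocan-like 1) did the opposite (2.66 and −2.04, limma adjusted p = 3.48e-05 and 0.000109). Of the remaining called genes of this list, singled out after their values were seen, *Prelp* was at 4.73, 0.133 and 27.1 ppm. Its M libraries held 200 and 350 bases, so it passed the filter through its E and RE libraries alone. *Fmod* (fibromodulin) was listed at 0 in both E libraries and passed the filter through its M and RE libraries alone. It was at 3.30 and 7.44 ppm in M (mean 5.37) and at 0.507 and 0.774 ppm in RE (mean 0.640). With the E libraries set at the floor, its M mean was at least 68.2 times and its RE mean at least 8.13 times the E level.

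Of the other matrix cores, 5 of 12 were tested, and 20% were called in E vs. M, against 16.8% of all genes tested. The only called gene was *Col18a1*, a basement membrane collagen that carries heparan sulfate. It was higher in M than in E (log2 fold change 1.13, limma adjusted p = 0.00057) and lower in RE than in M (−1.82, limma adjusted p = 8.15e-05). Of the other membrane proteoglycans, 7 of 11 were tested. *Cd44*, the main hyaluronan receptor, rose in E vs. M (1.93, limma adjusted p = 0.00103) and fell in M vs. RE (−1.81, limma adjusted p = 0.0017), from 123 to 451 to 128 ppm. *Nrp1*, a co-receptor that can carry a glycosaminoglycan chain, rose in E vs. M (1.91, limma adjusted p = 9.98e-05) and was still higher in RE than in E (1.84, limma adjusted p = 0.000488). *Tgfbr3* (betaglycan, a proteoglycan that presents TGFβ to its receptors) fell in E vs. M (−1.40, limma adjusted p = 0.00136), rose in M vs. RE (3.10, limma adjusted p = 5.14e-05) and was higher in RE than in E (1.71, limma adjusted p = 0.00138).

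In the list on hyaluronan synthesis, turnover and binding, 14 of 18 were tested, with 6 higher and 1 lower in E vs. M (median 0.57), 0 higher and 4 lower in M vs. RE (−0.35), and 2 higher and 1 lower in E vs. RE (0.05). The shares called were 50%, 28.6% and 21.4% in that order, against 16.8%, 12.7% and 9.08% of all genes tested. *Ugdh*, which makes the UDP-glucuronate used for hyaluronan, heparan sulfate and chondroitin sulfate, was at 173, 360 and 172 ppm and was singled out after its values were seen. *Stab1* (stabilin-1, a scavenger receptor) rose and fell with log2 fold changes of 1.77 and −2.50 (limma adjusted p = 0.00182 and 0.00049). Of the genes for hyaluronan breakdown, *Hyal1* fell in E vs. M (−1.57, limma adjusted p = 0.00832), and *Hyal2* was lower in RE than in E (−1.29, limma adjusted p = 0.0013) and M (−1.56, limma adjusted p = 0.000244). *Cemip2*, listed in the table under its older symbol *Tmem2*, was higher than in E in both M (1.02, limma adjusted p = 0.00204) and RE (1.25, limma adjusted p = 0.00184). *Cemip*, listed as 9930013L23Rik and at means of 0.401, 2.31 and 2.26 ppm in E, M and RE, was likewise higher than in E in M (2.29, limma adjusted p = 0.00071) and RE (2.26, limma adjusted p = 0.00167).

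Among enzymes for the linker and heparan sulfate chains, 22 of 27 were tested and 18 were not called in E vs. M (3 higher, 1 lower, median 0.35). The share called was 18.2%, near the 16.8% of all genes tested. In M vs. RE it was 18.2% against 12.7%, and in E vs. RE 9.09% against 9.08%. *Ext1*, a heparan sulfate polymerase, rose in E vs. M (log2 fold change 2.18, limma adjusted p = 4.91e-05), fell in M vs. RE (−1.04, limma adjusted p = 0.00135) and was still higher in RE than in E (1.14, limma adjusted p = 0.00167). *Sulf2*, which removes sulfate from heparan sulfate outside the cell, was higher in RE than in both E (1.40, limma adjusted p = 0.000816) and M (2.03, limma adjusted p = 6.34e-05). *B4galt7*, a linker enzyme, rose in E vs. M (1.19, limma adjusted p = 0.000856). Among enzymes for chondroitin and dermatan sulfate, 13 of 16 were tested, with 7 higher and 1 lower in E vs. M (median 1.104), 0 higher and 1 lower in M vs. RE (−0.40), and 6 higher and 0 lower in E vs. RE (0.66). The shares called were 61.5%, 7.69% and 46.2% in that order, against 16.8%, 12.7% and 9.08% of all genes tested. *Csgalnact1*, which starts chondroitin chains, was at 1.30, 22.2 and 8.41 ppm in E, M and RE (log2 fold change 3.99 from E to M, −1.39 from M to RE and 2.60 for RE against E, limma adjusted p = 1.38e-05, 0.000937 and 0.00028). *Chsy1*, a chondroitin polymerase, was higher than in E in both M (1.74, limma adjusted p = 0.000161) and RE (1.07, limma adjusted p = 0.00264). So was *Dse*, which turns chondroitin into dermatan sulfate (1.14 and 1.38, limma adjusted p = 0.000481 and 0.000686). Neither was called in M vs. RE.

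Among the proteases that cut versican or shed syndecans, 9 of 11 were tested, and 4 were higher and 0 lower in E vs. M (median 0.999). That is 44.4% called, against 16.8% of all genes tested. *Mmp9* and *Adamts4* had means of 1.58 and 0.949 ppm in E, 916 and 181.5 ppm in M, and 1.61 and 2.16 ppm in RE. *Mmp9*, a gelatinase, rose by 9.09 on the log2 scale and fell by 9.10 (limma adjusted p = 1.31e-05 and 6.56e-06), and *Adamts4*, which cuts versican and aggrecan, rose by 7.49 and fell by 6.33 (limma adjusted p = 1.36e-05 and 1.63e-05). *Adamts5*, a versican-cutting protease, was higher in RE than in M (log2 fold change 1.28, limma adjusted p = 0.00101) and E (1.08, limma adjusted p = 0.0034). Of the partners of syndecans and versican, 9 of 10 were tested, with 4 higher and 1 lower in E vs. M (median 1.35), or 55.6% called. The lower gene, *Fbln1*, held 0 and 350 bases in M and passed the filter through its E and RE libraries alone. *Tnc* (tenascin-C, which binds versican and syndecans) rose by 7.33 on the log2 scale in E vs. M (limma adjusted p = 1.38e-05) and fell by 5.77 in M vs. RE (limma adjusted p = 2.61e-05), and at means of 87.1 ppm in E and 243 ppm in RE it was still higher in RE than in E (1.55, limma adjusted p = 0.00844). *Fbn1* (fibrillin-1, a ligand of versican) was higher in M than in E (3.16, limma adjusted p = 0.000433) and in RE than in E (1.82, limma adjusted p = 0.00762). *Fbln2* had means of 705, 3274 and 1113 ppm in E, M and RE. It rose in E vs. M (2.26, limma adjusted p = 0.000465) and fell in M vs. RE (−1.56, limma adjusted p = 0.003). In E vs. RE it was not called (0.70, limma adjusted p = 0.0649). The syndecan-binding scaffold genes *Sdcbp*, *Cask* and *Gipc1*, picked out after their values were seen, were not called in any comparison.

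**Figure D4:**
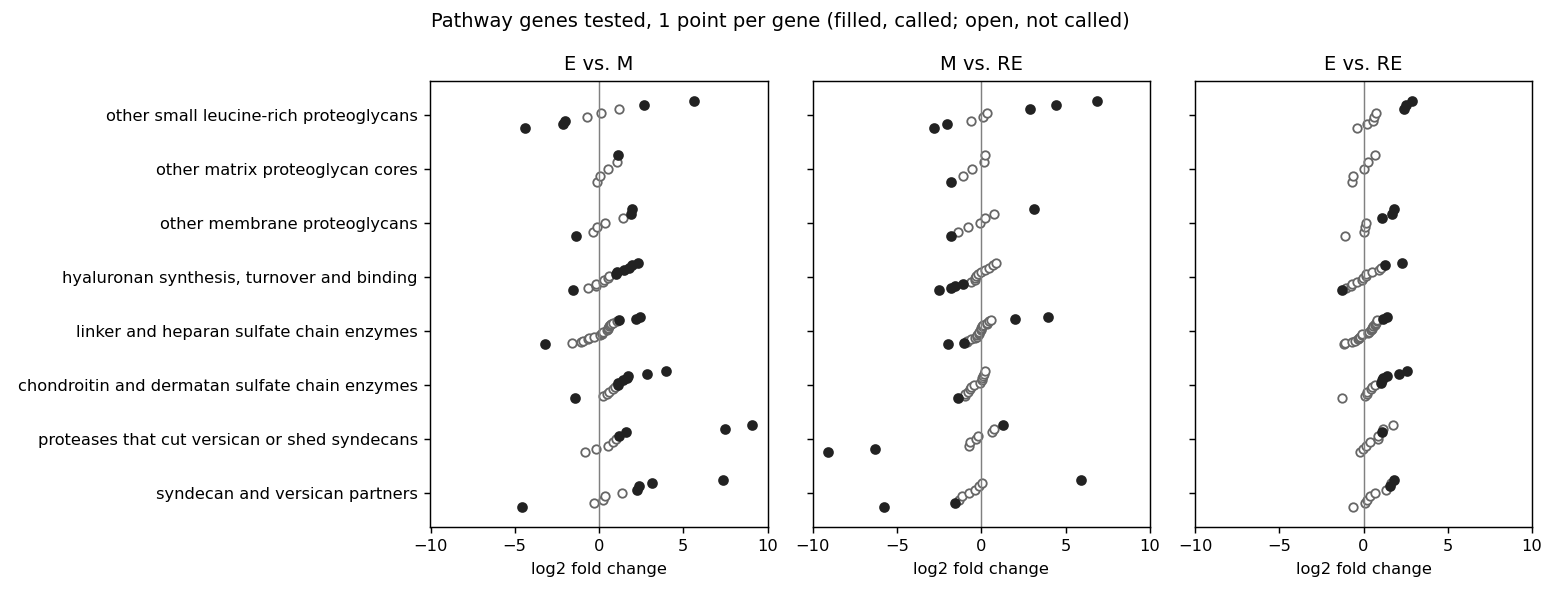
Log2 fold change (horizontal axis) of each pathway gene tested in the 3 comparisons, by list, with 1 point per gene (*Cd44* is in 2 lists). Filled points were called and open points were not. The chondroitin and dermatan sulfate enzymes lie mostly to the right of 0 in E vs. M and in E vs. RE. In E vs. RE, 6 of the 13 tested were called higher (46.2%, against 5.92% of all genes tested).

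For each of the 9 genes called in any comparison, the pathway gene with the most similar profile was taken by Pearson correlation of log2 values over the 6 libraries, from the 86 tested. They were *Cemip2* for *Vcan* (r = 0.996), *Extl2* for *Bgn* (0.94) and *Sdc2* (0.972), *Ogn* for *Dcn* (0.99), *B4galt7* for *Sdc1* (0.994) and *Has2* (0.989), *Cemip* for *Sdc3* (0.979), *Prelp* for *Sdc4* (0.996) and *Adamts4* for *Gpc1* (0.999). Each r rests on 3 groups of 2 libraries and was the highest of 86, so it describes a shared order of the stages and no more.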

How the data were processed

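EpH4 cells at each stage (2 biological replicates of E, M and RE) were profiled by RNA sequencing. The authors used Bowtie and TopHat2 to map unique reads to NCBI-m37, and deposited, for 17428 gene symbols, whole numbers that behave as coverage (signal), not read counts: among values from 1 to 400, between 44.8% and 48.4% per library are multiples of 50. How bases were summed per gene, the annotation and strand are not given in the sources used here, so overlapping genes may share coverage. Columns were matched to libraries by stage and replicate number in their names, and all 6 were used.

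Coverage was scaled to ppm by unweighted TMM (trims of 30% on log ratio and 5% on mean level) over the 13893 genes that reached 500 bases in 2 or more libraries. limma 3.58.1 (R 4.3.3) was fitted to log2(ppm + 0.1) for all 6 libraries, group only, with a mean-expression trend and Benjamini-Hochberg adjustment over all genes tested. edgeR, used in the study, needs counts and was not run. Calls needed a change of more than 1 on the log2 scale and an adjusted p under 0.01. The p-values rest on the spread between 2 libraries a group, pooled over the 3 groups, so each gene has the same SE in every comparison. As the E libraries were the least alike, pooling matters. With only the groups compared in the fit, 1713, 2305 and 462 of all genes were called in E vs. M, M vs. RE and E vs. RE. With all groups these counts were 2329, 1766 and 1262. Transcript lengths are those of the longest coding transcript in GENCODE M21 (GRCm38). Promoter sequences are from RefSeq.

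The genes and lists were chosen with earlier results of these data known. All 10 genes are named. From each pathway list, the 2 called genes that changed most, per direction and comparison, were named (average log2 value of at least 2), besides the nearest profiles. Alternatives tried were other fold and p thresholds, median-of-ratios and total scaling, 2 other filters, pseudocounts of 0.025 and 1, pairwise fits, a replicate block, array weights and leaving out each library.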

Additional observations from a re-analysis of the deposited data

How the results depend on the processing

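Coverage was low for *Vcan* in E (20 and 27 reads' worth) and for *Dcn* in E and M, and each group holds 2 libraries. Over the 10 genes and 3 comparisons, 312 of 327 values under other settings kept their direction and side of the thresholds, 9 lost the call, 3 gained it and 3 turned. Part of this was fixed in advance. The looser fold and p thresholds reused the main fit, so under them no value could lose a call or turn. Pairwise fits, the other filters, the replicate block and array weights left the fold changes as they were, so only calls could change there. *Dcn* gave no value with 500 bases required in every library. The values that turned were those of *Has3* with library totals (−0.17 for E vs. M, 0.12 for M vs. RE, −0.0459 for E vs. RE), a scaling that moved the median of all genes to −0.29 in E vs. M and 0.18 in M vs. RE. Leaving out 1 library at a time, 151 of 180 values were kept, 23 lost the call and 6, all of *Has3*, turned, its range being −0.50 to 0.73 (E vs. M), −0.69 to 0.53 (M vs. RE) and −0.47 to 0.54 (E vs. RE). The number of the 10 genes called then ran from 4 to 6, from 4 to 5 and from 0 to 6 in the same order of comparisons, and that of pathway genes from 17 to 42, 13 to 26 and 0 to 26. With the E and RE libraries fitted alone, 9 pathway genes were called in E vs. RE instead of 20, and 462 of all genes instead of 1262, while 4 of the 10 genes were called instead of 6. Without either library of M, 858 and 872 of all genes were called for E vs. M, 652 and 700 for M vs. RE, and 467 and 472 for E vs. RE, against 2329, 1766 and 1262 with all libraries. Without RE replicate 1 and 2 these were 627 and 739 for M vs. RE, with 8 and 49 for E vs. RE. Without E replicate 2, 2333 were called in E vs. RE. Fits that leave out a library assume that the lone sample varies like the other groups. A fold threshold of 1.5 called *Sdc1* in M vs. RE and *Sdc4* in E vs. M.

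Replicates share numbers across groups, but the deviations of same-numbered libraries correlated at 0.266 (E and M), 0.0579 (E and RE) and 0.116 (M and RE), so the numbers were not taken to pair the libraries. With the replicate number as a block, 6, 5 and 6 of the 10 genes were called, as without it, and 37, 23 and 20 pathway genes instead of 36, 22 and 20.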
